A study of Mus musculus with 407 samples.

Results

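Keratins 8, 18 and 19 (Krt8, Krt18 and Krt19) and the muscle intermediate filament genes Des, Vim, Nes and Sync were followed across 4 muscles, both sexes and 6 ages of the mouse. These 7 of the 24458 gene symbols in the count tables were chosen by name. Krt18 was selected on its own readout, since it was among the strongest risers with age in the limb muscles, and its change with age in those muscles is therefore given as a description with no test. Each of the 7 symbols had 1 row in every table. Diaphragm, gastrocnemius, soleus and tibialis anterior were taken from male and female C57BL/6J mice at 6 ages, from 6 months over 12, 18, 21 and 24 to 27 months, for which the labels name no treatment or altered gene. Total RNA of each muscle was sequenced after removal of ribosomal RNA, which gave 407 libraries in 48 groups of muscle, sex and age, with 6 to 10 libraries in a group. The mice were bought at different ages, and each age group was dissected on one day, so that age and day of dissection cannot be told apart. The labels do not tie the 4 muscles to single mice, and the p-values below measure the spread between libraries of a group. In bulk muscle, fewer cells of a type and less RNA per cell cannot be told apart.

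Intermediate filaments are ropes of coiled proteins that link the contractile apparatus of a muscle fibre to its membrane, nuclei and mitochondria. Keratins form obligate pairs of an acidic type I chain, such as keratin 18 or 19, and a basic type II chain, such as keratin 8. These simple keratins are best known from single-layered epithelia, liver and mesothelium, and keratins 8 and 19 have also been placed at the costameres, the sites where the outermost Z-discs of a fibre join the membrane. Desmin, encoded by Des, is the main filament of adult fibres and encircles the Z-discs. Nestin, from Nes, is prominent in developing and regenerating fibres and is kept at the neuromuscular and myotendinous junctions. Vimentin, from Vim, is mainly a filament of fibroblasts, endothelium and leukocytes. Syncoilin, from Sync, binds desmin and alpha-dystrobrevin and so connects the filament network to the dystrophin complex.

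Krt8 and Krt18 encode the chains of one filament and are near neighbours on the same chromosome, and the sequences just before their start sites are shown because these partner genes carry the keratin results in limb muscle. In the RefSeq annotation of GRCm38.p6, Krt8 lies on the minus strand at chr15:101996711-102004342 and Krt18 on the plus strand at chr15:102028216-102032026, with 23873 bases between them. The 250 bases before each start are given 5′ to 3′ on the strand of the gene, at chr15:102004343-102004592 for Krt8 and chr15:102027966-102028215 for Krt18. Capitals mark matches to the E-box, CANNTG, the general binding motif of myogenic and other basic helix-loop-helix factors.
Krt8: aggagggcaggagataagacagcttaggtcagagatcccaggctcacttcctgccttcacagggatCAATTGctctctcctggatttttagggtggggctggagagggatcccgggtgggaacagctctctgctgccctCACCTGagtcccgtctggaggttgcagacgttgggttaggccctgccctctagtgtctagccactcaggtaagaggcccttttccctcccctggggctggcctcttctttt
Krt18: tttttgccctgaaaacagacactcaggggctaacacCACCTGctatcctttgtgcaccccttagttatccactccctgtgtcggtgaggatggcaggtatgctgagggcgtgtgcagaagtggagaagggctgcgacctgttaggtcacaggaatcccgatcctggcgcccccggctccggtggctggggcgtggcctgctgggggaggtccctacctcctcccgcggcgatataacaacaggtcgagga
Krt8 held 2 E-boxes, 184 and 111 bases before its start, and Krt18 held 1, at 214 bases. The match CACCTG was present in both windows. Among 32851 windows of the same length before annotated starts, 66.2% held an E-box, so that a match is common. No TATA box (TATAAA), Sp1 box (GGGCGG), Runx site (TGTGGT) or AP-1 site (TGANTCA) was present on either strand of the 2 windows, and these motifs were found in 12.4%, 32.7%, 14% and 6.75% of all windows. Of the other members with a window, Des held 2 E-boxes at 220 and 36 bases before its start and Sync held 1 at 20 bases, whereas Vim and Nes held none. These matches describe letters in a window and were not tested for binding.

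The libraries held 38583802 to 300089909 counts, with a median of 72766895. Levels are given as CPM, the counts of a gene scaled to the total of its library, and 3 counts, the most that a count of 0 allows, equalled 0.009997 to 0.07775 CPM. These bounds cover counting error only. Of the diaphragm libraries, 7 stood apart from the rest. In 6 of them Ckm, the creatine kinase of the fibre, was at 16.1 to 320 CPM against 1479 to 3094 CPM in the other diaphragm libraries, and Acta1, skeletal actin, was at 105 to 1741 against 4421 to 8537 CPM, whereas Ttn, titin, lay in the usual range. In the same 6 libraries Des was at 15.8 to 636 CPM and Krt19 at 0.191 to 4.10 CPM. In 2 libraries, a male of 21 months and a male of 27 months that was also among the 6, the summed level of 10 liver genes was 41413 and 13318 CPM against at most 2645 CPM in all other libraries. The diaphragm changes of the 3 keratins, Des and Sync at 27 months are given with all libraries and without these 7, a choice made after the data were seen.

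In the limb muscles at 6 months, Krt8 and Krt18 were close to the limit of detection. In female gastrocnemius, Krt18 ranged from 0.0328 to 0.367 CPM at 6 months with a median of 0.109, and from 3.67 to 12.4 CPM at 27 months with a median of 7.05. In male gastrocnemius, its range was 0.0805 to 0.366 CPM with a median of 0.126 at 6 months and 1.95 to 13.6 CPM with a median of 4.17 at 27 months. The lowest old library thus lay above the highest young one in both sexes. In female tibialis anterior, Krt18 was at 0 to 0.132 CPM at 6 months with a median of 0.0553, and at 1.45 to 8.82 CPM at 27 months with a median of 3.94, again without overlap. The male tibialis anterior spanned 0 to 0.22 CPM with a median of 0.0935 at 6 months and 0.117 to 3.24 CPM with a median of 1.88 at 27 months. Here the lowest old library lay within the young range. In the soleus, whose fibres are slower, the 27-month libraries were scattered from the young level upward. Krt18 in female soleus went from 0 to 0.212 CPM with a median of 0.107 at 6 months to 0.013 to 10.9 CPM with a median of 0.65 at 27 months. In male soleus it went from 0 to 0.147 CPM with a median of 0.0613 to 0.109 to 3.62 CPM with a median of 1.24. The fitted log2 fold change of Krt18 at 27 over 6 months was 5.71 (SE 0.49) and 5.07 (SE 0.53) in female and male gastrocnemius. In the female and male tibialis anterior it was 6.34 (SE 0.75) and 4.15 (SE 0.78). In the female and male soleus it was 4.29 (SE 1.00) and 4.62 (SE 1.25). These 6 values belong to the selection of Krt18 and carry no test.

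**Figure D1:**
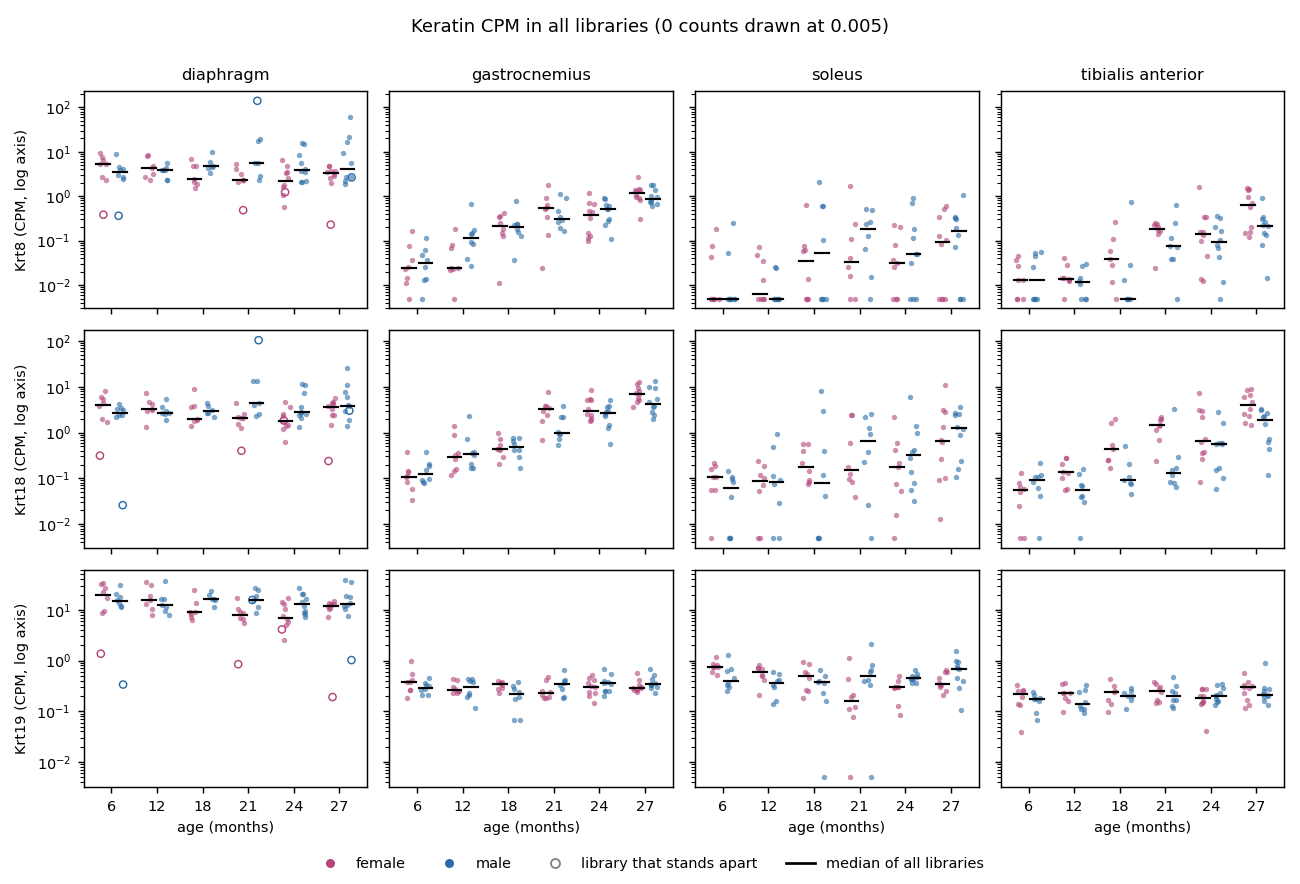
Level of Krt8, Krt18 and Krt19 in each library as CPM on a log axis against age in months, with 1 column of panels per muscle. Points are libraries coloured by sex, open circles are the 7 diaphragm libraries that stood apart, and black lines are medians of all libraries of a group. In the limb muscles Krt18 climbs from medians of at most 0.126 CPM at 6 months to 0.65 to 7.05 CPM at 27 months, while Krt19 stays below a median of 1 CPM there and lies between 7.04 and 19.7 CPM in the diaphragm.

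Krt18 in the limb muscles did not change in a single step. In female gastrocnemius its median was 0.29 CPM at 12 months, 0.44 at 18 months, 3.22 at 21 months and 2.92 at 24 months. In male gastrocnemius the corresponding medians were 0.336, 0.494, 0.99 and 2.71 CPM. The female median was above 1 CPM from 21 months and the male median from 24 months. In female tibialis anterior the medians were 0.134, 0.444, 1.43 and 0.667 CPM at 12, 18, 21 and 24 months, and in male tibialis anterior 0.0542, 0.0934, 0.132 and 0.571 CPM. Within an age group the libraries were widely spread. At 24 months, female tibialis anterior libraries spanned 0.0826 to 7.18 CPM, and at 18 months 1 male soleus library was at 8.11 CPM while 3 of the 8 were at 0.

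Krt8, the type II partner, was not used in the selection and was tested. Across the 7 members and the 8 fits of 1 muscle and sex, 50 tests were made at 27 against 6 months once Krt18 in limb muscle was left out, and 16 were called at an adjusted p below 0.05, all of them higher at 27 months. Over all genes tested, 29.3% were called in female and 23.3% in male gastrocnemius, 21.9% in female and 17.8% in male tibialis anterior, 18.8% in female and 2.85% in male soleus, and 1.61% in female and 8.65% in male diaphragm. Krt8 accounted for 4 of the 16 calls. Its counts in young limb muscle were very low, with medians of 0 to 2.5 counts a library at 6 months, so that the size of each fold change rests on few reads. At such counts Krt8 in limb muscle could pass the filter for low counts only with the help of older libraries, where it was higher. Without that filter the 16 calls were also made.

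In female gastrocnemius Krt8 was at 0 to 0.166 CPM at 6 months with a median of 0.0246, and at 0.31 to 2.76 CPM at 27 months with a median of 1.18. It rose by 4.64 on the log2 scale (SE 0.65, adjusted p = 2.51e-07, edgeR quasi-likelihood test). In male gastrocnemius Krt8 was at 0 to 0.115 CPM with a median of 0.0315 at 6 months and at 0.601 to 1.75 CPM with a median of 0.87 at 27 months. The log2 fold change was 4.58 (SE 0.57, adjusted p = 3.27e-08, edgeR). Young and old libraries did not overlap in either sex. In female tibialis anterior Krt8 went from 0 to 0.0444 CPM, median 0.0131, to 0.119 to 1.52 CPM, median 0.634, with a log2 fold change of 5.22 (SE 0.80, adjusted p = 2.66e-06, edgeR). In male tibialis anterior it went from 0 to 0.0545 CPM, median 0.0131, to 0.0146 to 0.901 CPM, median 0.218, with a log2 fold change of 3.42 (SE 0.92, adjusted p = 0.0065, edgeR). The 2 age groups overlapped there, at the low end of the old libraries. In the soleus Krt8 was at 0 in 5 of 8 female and 6 of 8 male libraries at 6 months, and still in 4 of 10 and 3 of 10 at 27 months. Its log2 fold changes of 2.37 (SE 1.17) in females and 2.63 (SE 1.25) in males did not pass the test, with adjusted p = 0.153 and 0.302 (edgeR).

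Krt8 was first called at 18 months in the gastrocnemius, with log2 fold changes of 2.30 (SE 0.66, adjusted p = 0.0167, edgeR) in females and 2.62 (SE 0.57, adjusted p = 0.00433) in males. It was called at each later age in that muscle. In female tibialis anterior the first call was at 21 months, at 3.28 (SE 0.87, adjusted p = 0.0089, edgeR), and in male tibialis anterior only 27 months was called. All ages share the 6-month libraries as their reference. Counting a member once per fit, 22 of the 50 tests were called at 1 or more older ages, against 22.9% of all genes over the 8 fits. A straight line over log2 of age, which uses all 6 ages, was called in 21 of the 50 tests against 19.9% of all genes. The slope of Krt8 per doubling of age was 2.29 (SE 0.29) and 1.97 (SE 0.23) in female and male gastrocnemius, and 3.17 (SE 0.39) and 1.83 (SE 0.40) in female and male tibialis anterior. In female soleus, where no single age was called, the line for Krt8 was called at 1.28 per doubling (SE 0.51, adjusted p = 0.0488, edgeR).

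**Figure D2:**
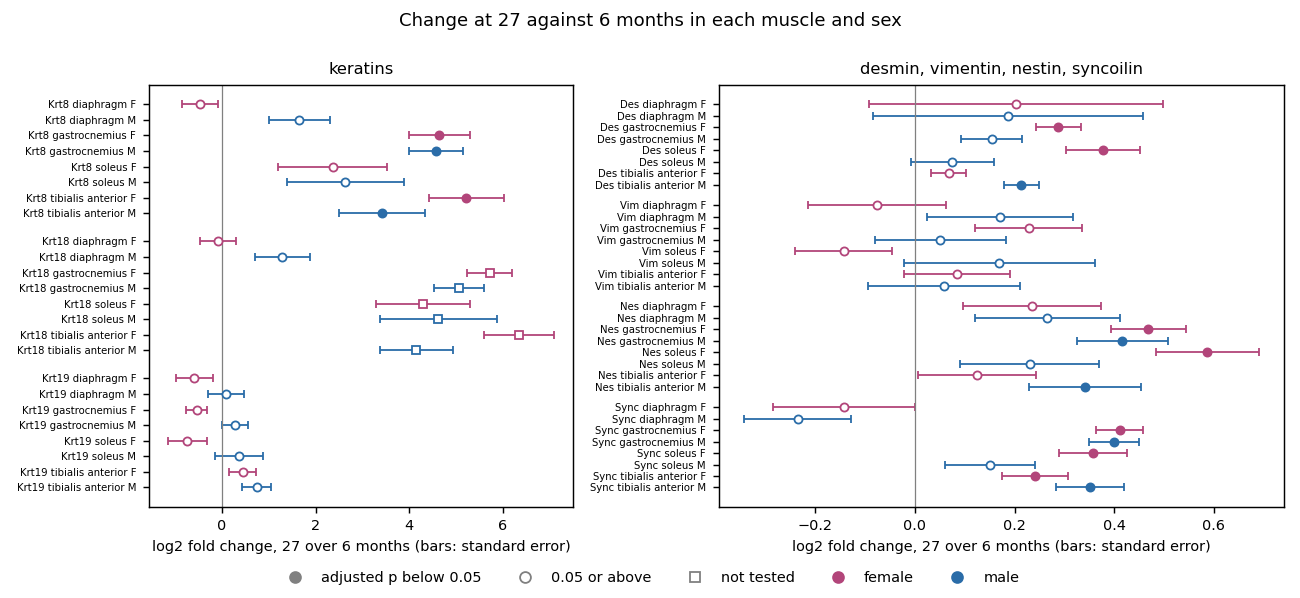
Log2 fold change at 27 over 6 months of each member in each muscle and sex, with bars of 1 standard error. Filled circles are called at an adjusted p below 0.05, open circles are not, and open squares mark Krt18 in the limb muscles, which was not tested. Krt8 and Krt18 reach 3.42 to 6.34 in gastrocnemius and tibialis anterior, while called changes of Des, Nes and Sync lie between 0.21 and 0.59.

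The diaphragm showed another picture, since all 3 keratins were expressed there from the youngest age. In female diaphragm Krt8 was at 0.383 to 9.6 CPM at 6 months with a median of 5.24, and at 0.229 to 4.76 CPM at 27 months with a median of 3.36. The log2 fold change was −0.46 (SE 0.38, adjusted p = 0.676, edgeR). In male diaphragm the range was 0.363 to 8.77 CPM with a median of 3.46 at 6 months and 1.92 to 61.5 CPM with a median of 4.15 at 27 months, with a log2 fold change of 1.65 (SE 0.65, adjusted p = 0.1). Most male libraries of the 2 ages overlapped. Without the 7 libraries the male value was 1.57 (SE 0.56, adjusted p = 0.0481, edgeR), just past the threshold, where 15.1% of all genes were called. The female value without them was −0.51 (SE 0.30, adjusted p = 0.341), where 4.59% of all genes were called.

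Krt18 was tested in the diaphragm, which the selection did not use. At 27 months its log2 fold change was −0.08 (SE 0.38, adjusted p = 0.979) in females and 1.29 (SE 0.59, adjusted p = 0.158) in males by edgeR, and without the 7 libraries −0.12 (SE 0.31, adjusted p = 0.869) and 1.14 (SE 0.45, adjusted p = 0.0734). At 21 months both keratins were called higher in male diaphragm, Krt8 at 3.00 (SE 0.72, adjusted p = 0.00756) and Krt18 at 3.09 (SE 0.66, adjusted p = 0.00403, edgeR). In the liver-rich male library of 21 months Krt8 was at 140 CPM and Krt18 at 104 CPM. Without that 1 library neither was called, at 1.27 (SE 0.60, adjusted p = 0.243, edgeR) for Krt8 and 1.37 (SE 0.52, adjusted p = 0.136) for Krt18. Without the 7 libraries they were 1.10 (SE 0.59, adjusted p = 0.293) and 1.18 (SE 0.48, adjusted p = 0.148). The line over log2 age in male diaphragm was called for Krt8, at 0.96 per doubling (SE 0.32, adjusted p = 0.0468, edgeR). Without the 7 libraries it was called for Krt8 at 0.65 (SE 0.22, adjusted p = 0.0399) and for Krt18 at 0.53 (SE 0.18, adjusted p = 0.042).

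Krt19, a type I keratin that can take the place of keratin 18 as the partner of keratin 8, was not called in any fit at 27 months. Its median in the limb muscles was 0.176 to 0.751 CPM at 6 months and 0.214 to 0.696 CPM at 27 months. In female soleus Krt19 went from 0.517 to 1.19 CPM at 6 months, median 0.751, to 0.0857 to 0.487 CPM at 24 months, median 0.304. The 2 groups did not overlap, and the log2 fold change was −1.19 (SE 0.43, adjusted p = 0.0363, edgeR), after −1.23 (SE 0.44, adjusted p = 0.0384) at 21 months. In female gastrocnemius Krt19 was called lower at 21 months, at −0.75 (SE 0.24, adjusted p = 0.0258, edgeR). Its line over log2 age was called lower in female gastrocnemius, at −0.24 per doubling (SE 0.09, adjusted p = 0.0286), and in female soleus, at −0.47 (SE 0.16, adjusted p = 0.0222), the only 2 downward lines among the 21 called with all libraries. In female diaphragm the line was also called lower once the 7 libraries were left out, at −0.43 (SE 0.11, adjusted p = 0.00439, edgeR). In female diaphragm its median was 19.7 CPM at 6 months, 7.77 at 21 months, 7.04 at 24 months and 12 at 27 months. No age was called there with all libraries. Without the 7 libraries Krt19 was called lower at 21 months, at −0.92 (SE 0.28, adjusted p = 0.0492, edgeR), and at 24 months, at −0.95 (SE 0.26, adjusted p = 0.0172). In male diaphragm its log2 fold change at 27 months was 0.08 (SE 0.39, adjusted p = 0.931). At that age it was, without the 7 libraries, −0.62 (SE 0.26, adjusted p = 0.161) in females and 0.02 (SE 0.29, adjusted p = 0.974) in males.

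The level of keratins in the diaphragm was set beside that of 9 mesothelial genes, since mesothelium covers that muscle and carries simple keratins. The 9 genes, among them Msln (mesothelin), Upk3b and Wt1, summed to 227 to 741 CPM in female and 238 to 521 CPM in male diaphragm at 6 months. In the 6 limb groups of that age the sum was 0.858 to 8.37 CPM, and Upk1b was at 0 in all male gastrocnemius and tibialis anterior libraries, Bnc1 in all male tibialis anterior libraries and Upk3b in all male soleus libraries. Without the 7 libraries, log2 levels were taken as deviations from the mean of the age, so that the relation is one among libraries of the same age. In females the mesothelial sum was correlated with Krt19 at r = 0.939 and rho = 0.922, with Krt8 at r = 0.829 and rho = 0.814, and with Krt18 at r = 0.819 and rho = 0.757, over 46 libraries. Each had a permutation p = 2e-05, adjusted over the 6 relations computed, and none of the 100000 resamples reached the observed r. In males, over 45 libraries, r was 0.488 for Krt19 (rho = 0.467, adjusted permutation p = 0.00113), 0.256 for Krt18 (rho = 0.22, adjusted permutation p = 0.107) and 0.196 for Krt8 (rho = 0.133, adjusted permutation p = 0.196). Without the 2 libraries farthest from the median of the sum, r was 0.923, 0.79 and 0.76 in females and 0.461, 0.239 and 0.29 in males for Krt19, Krt8 and Krt18. None of the 8 mesothelial genes tested was called in female diaphragm at 27 months, and 1 of 8, Gpm6a, was called lower in male diaphragm. Of all genes, 1.61% were called in female and 8.65% in male diaphragm, so that both counts are near these shares. With the 7 libraries left out, Msln was called lower in females, at −0.94 (SE 0.25, adjusted p = 0.0229, edgeR), and Gpm6a and Upk3b in males, at −0.64 (SE 0.18, adjusted p = 0.018) and −0.62 (SE 0.18, adjusted p = 0.0188). In those fits 4.59% of all genes were called in females and 15.1% in males. The part of mesothelium in the age changes of the diaphragm was not tested.

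**Figure D3:**
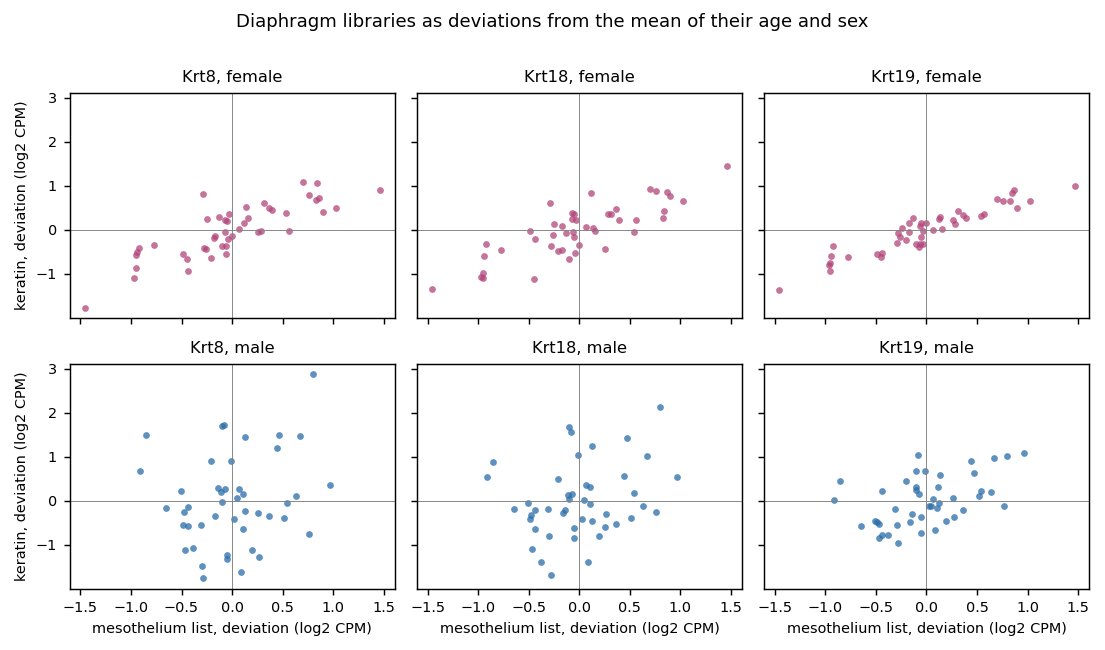
Diaphragm libraries, without the 7 that stood apart, as deviations of log2 CPM from the mean of their age and sex. The horizontal axis is the summed mesothelium list, the vertical axis the keratin named above each panel, and each point is a library. Female points follow a line for all 3 keratins (r of 0.819 to 0.939), while male points are scattered (r of 0.196 to 0.488).

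Genes of skin and other epithelium were examined in the same way in limb muscle. The 8 genes, which include Epcam, Cdh1, Krt5 and Krt14, summed to 0.445 to 461 CPM at 6 months and 0.49 to 217 CPM at 27 months. In male gastrocnemius the median sum was 1.41 CPM at 6 months and 40.9 CPM at 27 months, and in female gastrocnemius 13.7 and 6.07 CPM. Over 18 relations, the deviations of Krt8 and Krt18 from the mean of their age had r between −0.0996 and 0.176 with this sum, and the lowest adjusted permutation p was 0.668. For Krt19, 1 relation passed by Pearson's r, in male tibialis anterior at r = 0.45 (rho = 0.395, adjusted permutation p = 0.0158, 51 libraries). Without the 2 farthest libraries its r was 0.329 with an adjusted permutation p = 0.122. By Spearman's rho, Krt19 also passed in female tibialis anterior (rho = 0.521, adjusted permutation p = 0.0018) and in female and male soleus (rho = 0.395 and 0.377, both with an adjusted permutation p = 0.0271). The part of epithelial RNA in the changes with age was not tested further. As to male tibialis anterior, 5 genes of the list, among them Epcam, Krt14 and Krt15, were at 0 in all libraries of 6 months. At 27 months 4 of the list, including Krt5 and Krt14, were at 0 in all libraries. Cdh1 of the same list was called higher there at 27 months, at 0.67 (SE 0.23, adjusted p = 0.0343, edgeR).

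Krt8 and Krt18 were also compared among libraries of 27 months. Krt18 in limb muscle was selected for its change with age, and the relation is one within a single age. In the gastrocnemius Pearson's r over 10 libraries was 0.792 in females (rho = 0.733, adjusted permutation p = 0.00648) and 0.76 in males (rho = 0.624, adjusted permutation p = 0.0189). In the tibialis anterior r was 0.769 in females (rho = 0.77, adjusted permutation p = 0.0197) and 0.887 in males (rho = 0.903, adjusted permutation p = 0.00152). The soleus did not pass by Pearson's r, which was 0.619 in females (adjusted permutation p = 0.0655) and 0.56 in males (adjusted permutation p = 0.0912). By Spearman's rho female soleus passed (rho = 0.73, adjusted permutation p = 0.0275), while male soleus (rho = 0.46, adjusted permutation p = 0.183) and male gastrocnemius (adjusted permutation p = 0.069) did not. In the diaphragm r was 0.961 in females (rho = 0.867, adjusted permutation p = 0.00152) and 0.964 in males (rho = 0.939, adjusted permutation p = 0.00024). Without the 2 libraries farthest from the median of Krt18, r stayed past the threshold in male diaphragm (0.947), female tibialis anterior (0.952) and male tibialis anterior (0.764). It fell below it in female diaphragm (0.633), female gastrocnemius (0.497) and male gastrocnemius (0.359), so that these 3 relations rest on those libraries. Without the library that stood apart, female diaphragm had r = 0.807 over 9 libraries.

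**Figure D4:**
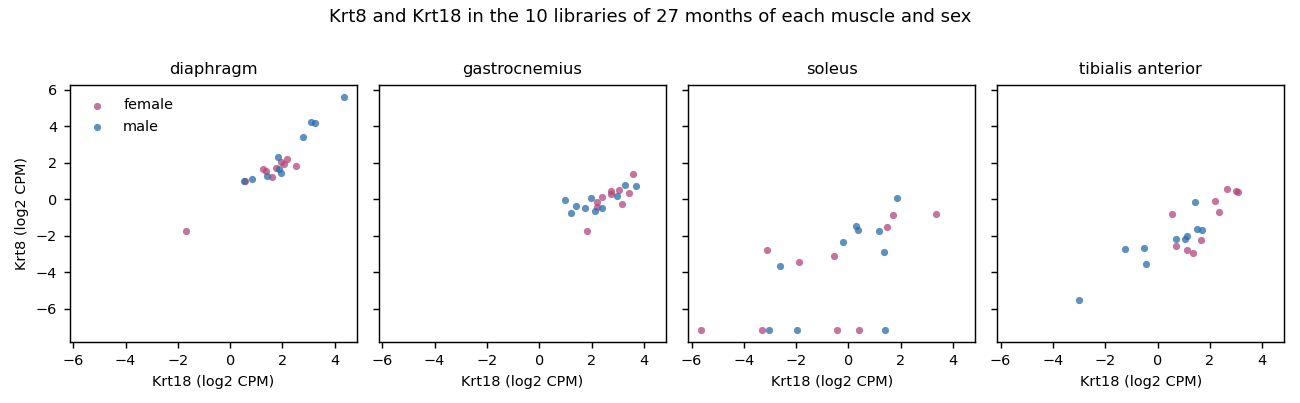
Krt8 against Krt18 in the libraries of 27 months, as log2 CPM with TMM scaling, 1 panel per muscle and 10 libraries of each sex. The points slope upward with r between 0.56 in male soleus, which did not pass the test, and 0.964 in male diaphragm.

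The balance of the 2 chains differed between diaphragm and limb, as a description that uses the selected gene. Per kilobase of transcript, Krt18 made up a median of 57.4% of the Krt8 and Krt18 signal in female and 48.9% in male diaphragm at 27 months, close to equal amounts. In the limb muscles at that age the median was 86.4% to 92.5%, with 88.5% in female and 87.6% in male gastrocnemius. At 6 months the limb libraries held too few reads of the 2 genes for a share in many libraries, and only those with 10 or more counts were used, without the 7 diaphragm libraries. On the same per-kilobase scale, Krt18 in female gastrocnemius at 27 months (4.91 CPM per kilobase) was of the order of Nes (5.66) and Sync (9.28), whereas at 6 months it was at 0.0761 against 3.88 and 6.38. Krt8 was at 0.602 CPM per kilobase there at 27 months, and the ranges of Krt8 and Krt18 did not overlap.

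Desmin was the most abundant member per kilobase in every group, at medians of 288 to 552.7 CPM per kilobase at 6 and 27 months without the 7 diaphragm libraries. In female gastrocnemius Des was at 1132 to 1274 CPM at 6 months, median 1178, and at 1389 to 2210 CPM at 27 months, median 1516. The groups did not overlap and the log2 fold change was 0.29 (SE 0.05, adjusted p = 2.58e-06, edgeR). It was called from 18 months on in that muscle. In female soleus Des rose by 0.38 (SE 0.07, adjusted p = 0.000242, edgeR) at 27 months and by 0.50 (SE 0.08, adjusted p = 3.95e-06) at 24 months. In male tibialis anterior it rose by 0.21 (SE 0.03, adjusted p = 1.48e-05, edgeR), from 910 to 1034 CPM with a median of 961 to 1034 to 1238 CPM with a median of 1162. In male gastrocnemius Des was called at 12 months, at 0.28 (SE 0.06, adjusted p = 0.0183, edgeR), when 1 library was at 2934 CPM, and at 27 months it was at 0.15 (SE 0.06, adjusted p = 0.063). In the diaphragm its log2 fold change at 27 months was 0.20 (SE 0.29, adjusted p = 0.883) in females and 0.19 (SE 0.27, adjusted p = 0.73) in males, and 0.18 and 0.08 without the 7 libraries.

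Vimentin, the filament of non-muscle cells, was called once. In male tibialis anterior at 24 months it was at 51.1 to 236 CPM, median 73.5, against 45.1 to 73.4 CPM, median 60, at 6 months. The log2 fold change was 0.46 (SE 0.15, adjusted p = 0.0322, edgeR). The library at 236 CPM lay far from the others of its group, of which the next was at 87.5 CPM. At 27 months the log2 fold changes of Vim lay between −0.14 in female soleus and 0.23 in female gastrocnemius, and no line over age was called. In the same fits the fibroblast genes Pdgfra, Col1a1, Col1a2, Col3a1, Dcn and Lum were called lower in 28 of 48 tests and higher in 0. Of all genes tested over the 8 fits, 7.32% were called lower and 8.01% higher.

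**Figure D5:**
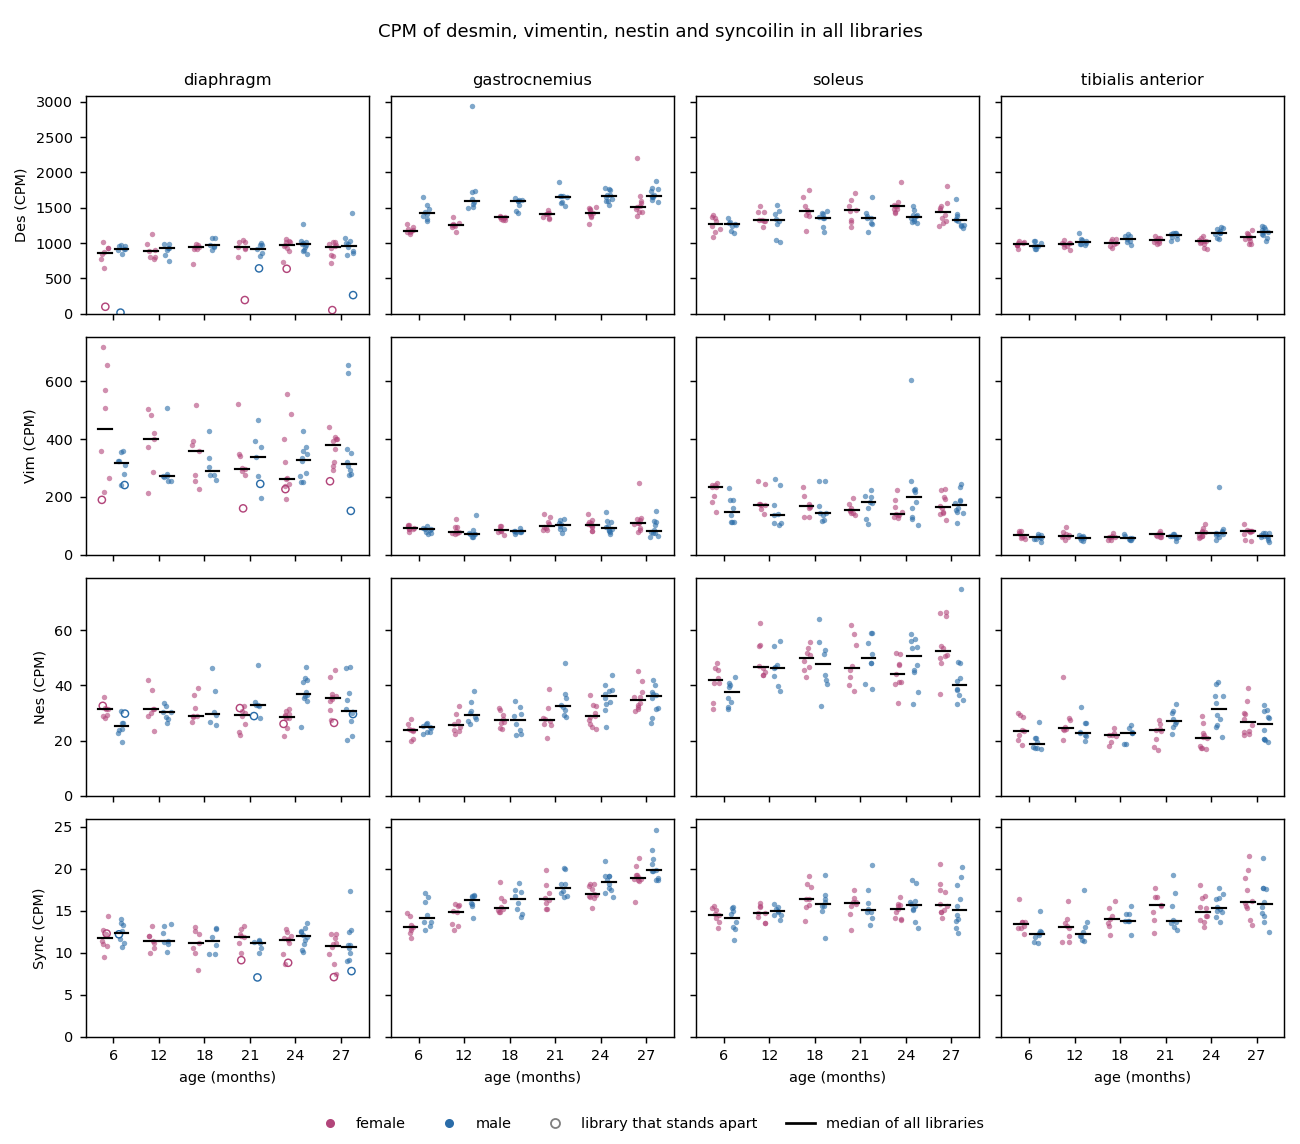
Level of Des, Vim, Nes and Sync in each library as CPM on linear axes that start at 0, against age in months, with 1 column of panels per muscle. Points are libraries coloured by sex, open circles are the 7 diaphragm libraries that stood apart, and black lines are medians. Des is low in the diaphragm libraries that stood apart, Vim is highest in the diaphragm, and Sync climbs in the gastrocnemius from medians of 13 and 14.1 to 18.9 and 19.8 CPM.

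Nestin was called in 4 of 8 fits at 27 months, all higher. In female gastrocnemius Nes was at 19.7 to 27.7 CPM at 6 months, median 23.8, and at 30.8 to 45.3 CPM at 27 months, median 34.7. All old libraries lay above all young ones and the log2 fold change was 0.47 (SE 0.07, adjusted p = 3.35e-06, edgeR). In male gastrocnemius Nes went from 22.3 to 26.5 CPM, median 24.7, to 26.5 to 41.9 CPM, median 36, with a log2 fold change of 0.42 (SE 0.09, adjusted p = 0.000585, edgeR). In female soleus it went from 31.4 to 48.2 CPM, median 41.7, to 36.9 to 66.4 CPM, median 52.3, with a log2 fold change of 0.59 (SE 0.10, adjusted p = 4.87e-05, edgeR). The soleus groups overlapped in CPM. In male tibialis anterior Nes was called at 21, 24 and 27 months, at 0.46 (SE 0.12), 0.62 (SE 0.11) and 0.34 (SE 0.11), with adjusted p = 0.0108, 0.000162 and 0.0271 (edgeR). The call at 27 months was lost when the libraries numbered 1, 4 or 7 were left out, at log2 fold changes of 0.27, 0.28 and 0.30. In female tibialis anterior Nes was at 0.12 (SE 0.12, adjusted p = 0.499). Its line over log2 age was called in male diaphragm, at 0.19 per doubling (SE 0.06, adjusted p = 0.0345, edgeR), and at 0.24 (SE 0.06, adjusted p = 0.00917) without the 7 libraries. Without those libraries Nes in male diaphragm was also called at 21 months (0.53, SE 0.16, adjusted p = 0.0482, edgeR) and at 24 months (0.63, SE 0.14, adjusted p = 0.0127).

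Syncoilin gave the most calls of any member, 5 of 8 fits at 27 months, with small and tightly estimated changes. In female gastrocnemius Sync was at 11.8 to 14.7 CPM at 6 months, median 13, and at 16.1 to 21.3 CPM at 27 months, median 18.9. In male gastrocnemius it was at 12.7 to 17.1 CPM, median 14.1, and at 18.6 to 24.7 CPM, median 19.8. The age groups did not overlap in either sex, and the log2 fold changes were 0.41 (SE 0.05, adjusted p = 3.21e-09) and 0.40 (SE 0.05, adjusted p = 3.74e-08) by edgeR. In both sexes Sync was called from 18 months on. In the tibialis anterior it rose by 0.24 (SE 0.07, adjusted p = 0.00578) in females and by 0.35 (SE 0.07, adjusted p = 0.000206) in males, with overlapping libraries. In female soleus it rose by 0.36 (SE 0.07, adjusted p = 0.000145, edgeR), while male soleus was at 0.15 (SE 0.09, adjusted p = 0.474). In the diaphragm the values were −0.14 (SE 0.14, adjusted p = 0.776) in females and −0.24 (SE 0.11, adjusted p = 0.159) in males, and without the 7 libraries −0.04 and −0.16.

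Whether a change differed between a limb muscle and the diaphragm was tested as an interaction within each sex, without Krt18. Of 18 tests in females 4 were called, against 4.2% of all genes, and of 18 in males 2 were called, against 3.04%. Krt8 changed more in female gastrocnemius than in female diaphragm, by 5.10 on the log2 scale (SE 0.95, adjusted p = 8.56e-05, edgeR), and more in female tibialis anterior, by 5.69 (SE 1.05, adjusted p = 6.7e-05). In males the differences of 2.90 (SE 1.05, adjusted p = 0.101) in gastrocnemius and 1.75 (SE 1.18, adjusted p = 0.526) in tibialis anterior did not pass. Sync changed more than in the diaphragm in female gastrocnemius by 0.54 (SE 0.13, adjusted p = 0.00351, edgeR), in female soleus by 0.50 (SE 0.13, adjusted p = 0.00856), in male gastrocnemius by 0.60 (SE 0.12, adjusted p = 0.000608) and in male tibialis anterior by 0.54 (SE 0.12, adjusted p = 0.0052). The 6 calls were also made without the 7 libraries.

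The muscles already differed at 6 months. Of 72 tests between pairs of muscles, with Krt18 left out, 24 of 36 were called in females, against 54.5% of all genes, and 26 of 36 in males, against 47.8%. All 36 tests of a limb muscle against the diaphragm were called. The 2 shares of all genes pool the 6 pairs of muscles. Between limb muscles alone the shares were lower, at 40.6% in females and 34.9% in males. The share of all genes called against the diaphragm was thus above the pooled one. Krt19 in the diaphragm was at a median of 19.7 CPM in females and 14.6 CPM in males against at most 0.751 CPM in a limb muscle, and the log2 difference of limb minus diaphragm was −4.06 to −5.48. For Krt8 this difference was −5.72 to −6.98. Vim was also lower in the limb muscles, at −0.50 in male soleus to −1.58 in female tibialis anterior. Des was higher in each limb muscle than in the diaphragm, by 1.13 to 1.63, and by 0.86 to 1.31 without the 7 libraries. For the less variable members the order depended on scaling, because the median of all genes between gastrocnemius and diaphragm in females was −0.14 with TMM scaling and −0.60 in unscaled CPM. Nes was higher in female gastrocnemius than diaphragm by 0.38 with TMM scaling and lower, at −0.40, in unscaled CPM, and it turned in the same way in male gastrocnemius and in the tibialis anterior of both sexes. Sync was higher in each limb muscle by 0.65 to 1.14 with TMM scaling, and in unscaled CPM by 0.16 to 0.30 except in male tibialis anterior, where it was −0.0037.

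Between limb muscles, 14 of 36 tests were called, and 18 without the 7 libraries. Of all genes, 40.6% were called between limb muscles in females and 34.9% in males. Vim was higher in soleus than in gastrocnemius, by 0.79 (SE 0.12, adjusted p = 3.54e-09, edgeR) in females and by 0.60 (SE 0.16, adjusted p = 0.00126) in males, and lower in tibialis anterior than in soleus, at −1.06 and −0.85. Nes was higher in soleus than in gastrocnemius by 0.37 (SE 0.12, adjusted p = 0.00581) in females and by 0.34 (SE 0.13, adjusted p = 0.0295) in males. Krt19 was lower in tibialis anterior than in soleus, at −1.39 (SE 0.38, adjusted p = 0.00101, edgeR) and −1.16 (SE 0.42, adjusted p = 0.0167). Krt8 did not differ past the threshold between any 2 limb muscles at 6 months. Sync was lower in soleus than in gastrocnemius, at −0.29 and −0.32 with TMM scaling, and in unscaled CPM the female difference was 0.13 in the other direction. The sample numbers in the labels fell in 3 runs that diaphragm and limb libraries used unequally, and the muscle comparison was not fitted with the run as a term.

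The sexes were compared by the interaction of sex and age at 27 months in each muscle. Krt18 in limb muscle was left out, and of the other 25 tests none was called by edgeR or by limma-voom, and 4 had an unadjusted p below 0.05. Of all genes, 0% were called for diaphragm, 1.6% for gastrocnemius, 0.855% for soleus and 1.73% for tibialis anterior. With all libraries the smallest p belonged to Des in the tibialis anterior, where the male change exceeded the female by 0.15 (SE 0.05, unadjusted p = 0.00286, adjusted p = 0.0897, edgeR). For Krt8 in the diaphragm, the male change exceeded the female by 2.12 (SE 0.75, unadjusted p = 0.00574, adjusted p = 0.536, edgeR). This difference was, without the 7 libraries, 2.09 (SE 0.63, unadjusted p = 0.00139, adjusted p = 0.248), and that of Krt18 in the diaphragm was 1.27 (SE 0.55, unadjusted p = 0.0224, adjusted p = 0.512). The wide errors of Krt8 in soleus (SE 1.76) and tibialis anterior (SE 1.38) leave large sex differences undetectable at this depth.

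Other genes of the family and its partners were counted at 27 against 6 months. Over the 8 fits, 8.01% of all genes tested were called higher and 7.32% lower. Of the other 48 keratin genes of types I and II, only 68 tests over the 8 fits had enough counts, of which 2 were called higher and 7 lower at 27 months. Krt80 was the gene called higher, in male diaphragm at 1.86 (SE 0.43, adjusted p = 0.00662, edgeR) and in male gastrocnemius. Krt222 was called lower in 5 fits, at −0.60 to −1.02. Krt10, a skin keratin, was called lower in female soleus at −5.35 (SE 0.89, adjusted p = 2.24e-05, edgeR) and in female tibialis anterior. In female soleus the genes of skin and other epithelium summed to 461 CPM in 1 library of 6 months and to at most 6.07 CPM in the others of that age. The other genes of types III to VI were called higher in 6 of 57 tests and lower in 3. They included Lmna, which encodes lamins A and C of the nuclear lamina, higher in male gastrocnemius at 0.49 (SE 0.10, adjusted p = 0.000122, edgeR) and male tibialis anterior at 0.36 (SE 0.11, adjusted p = 0.0175). Synm, the desmin partner synemin, was called higher in female soleus and lower in male gastrocnemius and female tibialis anterior, where it was at −0.20 (SE 0.06).

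Linker proteins that join filaments to membranes and Z-discs were called higher in 46 of 189 tests and lower in 11. Pkp2, a desmosomal plakophilin, was called higher in 5 of the 6 limb fits, from 0.46 (SE 0.07, adjusted p = 5.99e-07, edgeR) in female gastrocnemius to 1.05 (SE 0.10, adjusted p = 7.3e-11) in male tibialis anterior. Cryab, the chaperone of desmin, rose by 0.64 (SE 0.08, adjusted p = 1.12e-08, edgeR) and Flnc, filamin C, by 0.68 (SE 0.09, adjusted p = 2.15e-07) in female gastrocnemius. Plec, plectin, which ties desmin to the Z-disc, rose by 0.48 (SE 0.08, adjusted p = 3.7e-05, edgeR) in female soleus and was called lower in female tibialis anterior. Dmd, dystrophin, rose by 0.40 (SE 0.04) in female and by 0.28 (SE 0.04) in male tibialis anterior. In male diaphragm Dmd was at −0.40 (SE 0.12, adjusted p = 0.0352, edgeR), and at −0.23 (SE 0.07, adjusted p = 0.0222) without the 7 libraries. Capn3, the protease calpain 3, was lower in male gastrocnemius at −0.25 (SE 0.03, adjusted p = 3.44e-08, edgeR) and female tibialis anterior at −0.20 (SE 0.03).

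Genes of denervated fibres and the neuromuscular junction were called higher in 66 of 104 tests and lower in 2. In the limb muscles the calls were 63 of 78, with 12 of 13 genes in the gastrocnemius of each sex, and in female diaphragm 0 of 13. Of all genes, 2249 of 15376 were called higher in female and 1617 of 15227 in male gastrocnemius. In female diaphragm only 101 of 16193 were, so that 0 of 13 is near the share of all genes there. Runx1, a transcription factor induced by denervation, rose by 1.95 (SE 0.15) in female and by 2.16 (SE 0.19) in male gastrocnemius. Chrnb1 and Chrna1, subunits of the acetylcholine receptor, rose by 0.78 (SE 0.07) and by 1.12 (SE 0.09) in male gastrocnemius. The summed level of the 13 genes in female gastrocnemius was 124 to 152 CPM at 6 months and 226 to 364 CPM at 27 months, without overlap, and in female diaphragm 148 to 267.5 and 148 to 248 CPM. Genes of satellite cells and regeneration were called higher in 11 of 56 tests and lower in 14. Myh3, embryonic myosin, was called higher in all 8 fits, in male diaphragm only with the 7 libraries kept, and Pax7 and Calcr, markers of satellite cells, supplied 10 of the 14 lower calls. Neither list was tested for a link to the filament genes.

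Markers of other cells moved in both directions. Macrophage genes were called higher in 6 of 48 tests and lower in 3, Schwann cell genes higher in 3 of 40 and lower in 3, and endothelial and mural genes higher in 1 of 48 and lower in 11. Mesothelial genes were called higher in 1 of 32 tests, Msln in male tibialis anterior at 1.63 (SE 0.33, adjusted p = 0.000331, edgeR), and lower in 1, and genes of skin and other epithelium higher in 1 of 32 and lower in 2. Genes of the muscle fibre itself were called higher in 6 of 64 tests and lower in 8. Liver genes were called higher in 10 of 80 tests, all 10 in female tibialis anterior, where their sum was 6.07 to 28.4 CPM at 6 months and 10.1 to 609 CPM at 27 months. Krt8 and Krt18 are also expressed in liver, and the part of liver RNA in the female tibialis anterior result was not tested. When the 7 libraries were left out, 9 of the 10 liver genes were called lower in male diaphragm, with a median log2 fold change of −4.29 over the list, and 1 in female diaphragm. Their part in the diaphragm results was not tested either.

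Over the 48 groups of muscle, sex and age, the genes whose mean log2 CPM was most like that of Krt18 among 15021 genes were Cxcl10, an interferon-induced chemokine (r = 0.903), Krt8 (0.887), Lrat (0.836), Cd82 (0.833) and Mfsd7a (0.83). Over the 36 limb groups alone r between Krt18 and Krt8 was 0.943. For Krt8 the leading genes were Serpina3g (0.932), Jchain (0.923), Slc37a2 (0.921), Serpina3f (0.916) and Il12rb1 (0.908), of which Jchain, the joining chain of antibodies, marks plasma cells. For Nes they were Ctdp1 (0.931), A330074K22Rik (0.93), Lrrc47 (0.925), Srrm1 (0.924) and Nfatc2 (0.924). Among the members, Sync was most like Des over the 48 groups, at r = 0.936. Over the 36 limb groups r with Sync was 0.748 for Krt8, 0.716 for Krt18 and 0.666 for Des. Krt19 and Krt8 had r = 0.798 over all groups and 0.00188 over the limb groups, so that their likeness lay in the difference between diaphragm and limb. These values describe groups that share muscle, sex, age and, within an age, the day of dissection, and they carry no test.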

How the data were processed

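Total RNA of 407 muscle samples was depleted of ribosomal RNA and sequenced from strand-specific libraries. Per the study's methods the authors aligned paired reads to mm10 in ArrayStudio (version not given in the sources used here) and counted them on their own gene model, built from RefSeq. How reads with several matches were counted was not given. The deposited values are raw counts per gene, not normalized. For 329 symbols present on more than 1 row, the row with the most counts was kept. The other rows of these symbols, 633 of 25091, were left out (0.0335% of counts). Groups and replicate numbers were taken from the labels.

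Counts were tested with edgeR 4.0.16 in R 4.3.3 (quasi-likelihood test, filterByExpr, TMM scaling, Benjamini-Hochberg adjustment over all genes tested), each muscle and sex on its own with age as 6 groups. A gene was called at an adjusted p below 0.05. Lines over log2 age, interactions and muscle pairs used the same test. Correlations used log2 CPM with a prior count of 0.5 and two-sided permutation tests of 100000 resamples in scipy 1.17.1. The scripts were tested on simulated data with known changes. The alternatives were limma-voom (limma 3.58.1), DESeq2 1.42.0, other scaling, no filter, the study's limits of fold and Bonferroni adjustment, other terms and left-out libraries. The limits that set 7 diaphragm libraries apart (Ckm under 0.2 of the median, or liver genes above 10000 CPM) were chosen after the data were seen.

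All 7 members were named. From each list at most 3 called genes per muscle and sex, those with the smallest adjusted p, were named, and the 5 genes most like Krt18, Krt8 and Nes among genes with a mean of at least 0.5 CPM in 1 or more groups. The members and lists were chosen with earlier results of these data known. Libraries held 38583802 to 300089909 counts, and their number and depth limit the precision of low levels.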

Additional observations from a re-analysis of the deposited data

Results flagged for a closer look

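Within groups of 6 to 10 libraries, a single library lay far from the others, by Dixon's limit, in 22 of the 112 groups of a member tested at 6 or 27 months. Chance flags about 1 in 20 such groups. In 14 of the 22 the library was one of those that stood apart in the diaphragm. At 6 months the lowest female library held 0.383 CPM of Krt8, 0.312 CPM of Krt18, 1.36 CPM of Krt19 and 98.7 CPM of Des. The lowest male library of that age held 0.363 CPM of Krt8, 0.0259 CPM of Krt18, 0.337 CPM of Krt19 and 15.8 CPM of Des. At 27 months the lowest female library held 0.229 CPM of Krt8, 0.238 CPM of Krt18, 0.191 CPM of Krt19 and 51.6 CPM of Des. The lowest male library of that age held 1.02 CPM of Krt19 and 263.6 CPM of Des.

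The other 8 were spread over the limb muscles. At 27 months, single libraries were highest for Vim in female gastrocnemius (249 CPM), Des in male soleus (1630.5 CPM), Nes in male soleus (75.0 CPM) and Krt19 in male tibialis anterior (0.875 CPM). At 6 months, single libraries were lowest for Krt18 in female soleus and male tibialis anterior (0 CPM in each) and for Krt19 in female tibialis anterior (0.0399 CPM), and 1 was highest for Sync in female tibialis anterior (16.4 CPM).

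The change from 6 to 27 months differed between a limb muscle and the diaphragm, by the edgeR interaction test, for 2 members. For Krt8 in females the limb change exceeded the diaphragm change by 5.10 on the log2 scale in gastrocnemius and by 5.69 in tibialis anterior. For Sync the excess was 0.54 in female gastrocnemius, 0.50 in female soleus, 0.60 in male gastrocnemius and 0.54 in male tibialis anterior.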

How the results depend on the processing

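The count of 16 member calls at 27 against 6 months became 5 when a fold above 1.5 was also required and 10 with Bonferroni adjustment, and the 22 calls at any older age became 10 and 13. Leaving out the libraries of 1 replicate number at a time gave 15 to 17 calls at 27 months. No call of a single member turned direction. The other alternatives changed the tool, the scaling, the filter, the terms or the libraries. Over those alternatives of the 16 calls, 285 stayed past the threshold and 3, all Nes in male tibialis anterior, did not. All 16 calls were in limb muscle, so that leaving out the 7 diaphragm libraries could not change them. The 285 include 16 results of that setting. Krt8 in male diaphragm crossed the threshold without the 7 libraries. Without the 2 libraries farthest from the median of Krt18, the correlation of Krt8 and Krt18 at 27 months was 0.633 in female diaphragm, 0.497 in female gastrocnemius and 0.359 in male gastrocnemius, no longer past the threshold, and with a prior count of 2 it was 0.674 in female soleus, now past it.

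With the replicate number as a block, the calls were 17 at 27 months, 20 at any age, 21 for the line, 0 for sex and 50 between muscles. They were 7 for the interaction of muscle and age, and 76 in the lists of other keratins, other filament genes and linkers. Without the block these lists held 2, 6 and 46 higher and 7, 3 and 11 lower calls. The labels do not say whether libraries of the same number come from the same mouse. Deviations of libraries with the same number had a median correlation of 0.0265 across ages, 0.117 across muscles and 0.0212 across sexes. For different numbers the medians were −0.000133, −0.0204 and −0.0039. Pairs over 0.1 were 325 of 939, 315 of 599 and 73 of 202 for the same number. For different numbers they were 2273 of 7665, 1074 of 4654 and 457 of 1552. Across muscles, libraries of the same number were thus more alike, and the main muscle tests took them as unpaired. Krt8 in young limb muscle rested on a few reads a library, which limits the precision of its fold change.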
